A study of Homo sapiens with 4 samples.

Results

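The ZBTB, ZSCAN and ZKSCAN genes encode zinc finger transcription factors that carry a second domain beside their fingers. They were taken as every gene of the deposited table whose symbol is ZBTB, ZSCAN or ZKSCAN followed by a number and at most 1 letter, which gave 58 of 13957 genes. Of these, 36 are ZBTB genes, which form the BTB subfamily, and 22 form the SCAN subfamily, with 15 ZSCAN and 7 ZKSCAN genes. The table comes from RNA sequencing of MDA-MB-231 Fluc cells, a triple-negative human breast cancer line into which a luciferase gene was inserted. There were 2 samples treated with 50 μM cordycepin (3′ deoxyadenosine) for 2 h and 2 samples treated for 2 h with its vehicle, DMSO. Both groups come from the same line, and the labels do not say whether the samples of a group came from separate cultures.

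The values described here are the authors' means, 1 for each gene over the libraries of the comparison, as log2 CPM, where CPM is the count of a gene scaled to the reads of its library. The cordycepin and DMSO samples cannot be separated in such a mean, so the levels describe neither group alone, and no effect of cordycepin on these genes is given. Depth is unknown as well, a level carries neither an SD nor an n, and genes next to each other in the order cannot be said to differ. A longer transcript yields more reads, so genes were compared by a level per length, the mean log2 CPM less the log2 of the length in kb of the canonical transcript of the gene. A level of 0 is then 1 CPM per kb, and each step of 1 is a doubling. Mean log2 CPM in the table ran from 0.56 to 13.43.

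The BTB domain is a fold through which proteins pair with themselves and with each other, and in many of these factors it also binds corepressors such as NCOR1 and BCOR. The SCAN domain, found in vertebrates, likewise serves in pairing between proteins of its own kind. ZKSCAN proteins carry a KRAB domain as well, a domain that in many other zinc finger proteins recruits the corepressor TRIM28. In both subfamilies the DNA is read by C2H2 zinc fingers, in which a pair of cysteines and a pair of histidines hold a zinc ion.

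The identity of the cells was examined first. The 6 genes fixed as markers of a mesenchymal-like breast line, among them VIM, CD44 and AXL, had levels from 7.70 to 9.50. Of 7 luminal epithelial markers, 5 had a value, from -0.094 for ERBB3 to 3.05 for EPCAM. EPCAM and GATA3 (2.86) stood at percentiles 50.2 and 46.7 of all genes, so not every luminal marker was low. The oestrogen and progesterone receptor genes ESR1 and PGR were not analysed here. The blood cell genes PTPRC and CD3E were also not analysed here. The levels of the mesenchymal-like and luminal lists did not overlap.

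By level per length, most of the 58 genes lay in the lower part of the table. Their median level was 1.25, whereas the median of the 13922 genes with a transcript length was 3.04. Only 8 of the 58 were above that median, and 32 were among the lowest 25% of all genes, under a level of 1.53. By mean log2 CPM, without the division by length, 17 of the 58 were among the lowest 25%. Of the 36 BTB genes 5 were there by log2 CPM and 17 by level per length. Of the 22 SCAN genes 12 were there by log2 CPM and 15 by level per length. The median log2 CPM was 3.68 for the 58 genes, 3.82 for BTB, 2.67 for SCAN and 4.58 for all genes. The low place of the BTB genes thus depends more on the division by length than that of the SCAN genes. The highest of the 58 was ZBTB18 at 4.37, and the lowest was ZSCAN20 at -1.66. The 420 genes named ZNF and a number, the large family of zinc finger genes without either domain in their names, had a median level of 1.03.

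In the BTB subfamily the levels ran from -0.45 to 4.37 with a median of 1.61. With the lowest 25% and the highest 25% of the subfamily set aside, levels lay between 0.73 and 2.59. Above 1 CPM per kb were 32 of the 36 genes, and 6 exceeded the median of all genes. These 6 were ZBTB18, ZBTB4, ZBTB44, ZBTB38, ZBTB2 and ZBTB7A. With the gene length of the deposited table the median of all genes was 2.43, and ZBTB22, ZBTB33 and ZBTB40 exceeded it as well.

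**Figure D1:**
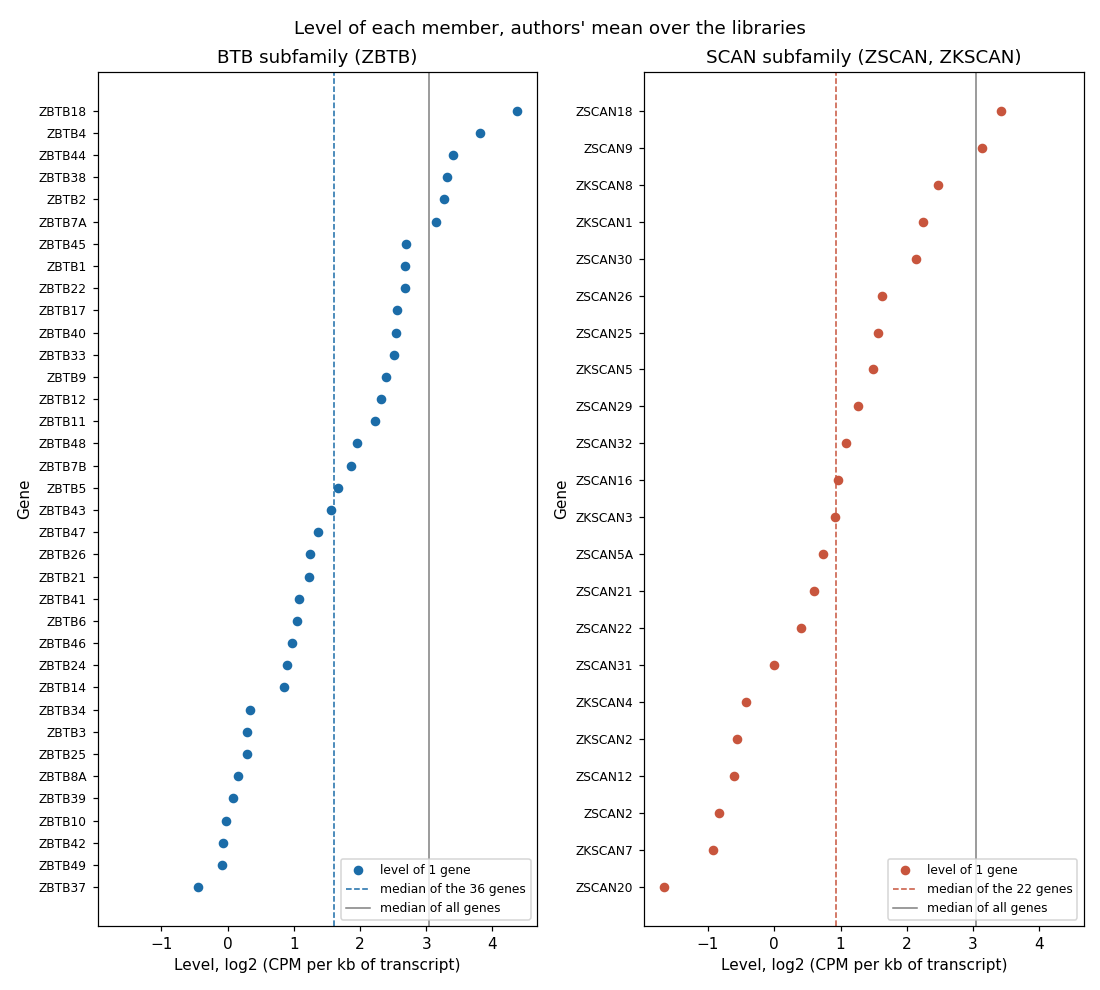
Level of each of the 58 genes (x axis, log2 CPM per kb of transcript, authors' mean over the libraries) in the BTB subfamily (left, 36 genes) and the SCAN subfamily (right, 22 genes), with 1 point per gene. Dashed lines mark the medians, 1.61 and 0.94, and grey lines the median of all genes, 3.04. In the BTB panel 6 points lie to the right of the grey line and in the SCAN panel 2 do.

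ZBTB18, known as a repressor in developing neurons, had the highest level of the 58 genes. It lies on the plus strand of chromosome 1 from 244048939 to 244057476 (ENSG00000179456). Its mean log2 CPM was 6.31, and its level of 4.37 stood at percentile 72.4 of all genes. ZBTB42, the BTB gene most like it in sequence, was at the other end of the subfamily with a mean log2 CPM of 1.78 and a level of -0.075. The difference of 4.44 between the levels of this pair is 21.8-fold.

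The BTB factors ZBTB33 (Kaiso), ZBTB4 and ZBTB38 are known for binding methylated CpG sites. All of them were above the median of the subfamily. ZBTB4 had a level of 3.81 and a mean log2 CPM of 6.36. ZBTB38 had a level of 3.32, and ZBTB33, which lies on the X chromosome, had 2.52. The level of ZBTB38 fell to 2.49 when the deposited gene length of 14.2 kb replaced the transcript length of 8.01 kb, so its place relative to ZBTB33 depends on the length used.

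Among factors known from cell differentiation, ZBTB7A (LRF), a repressor of fetal globin genes, had a level of 3.15. Its relative ZBTB7B (ThPOK), which directs T cells to the CD4 lineage, had 1.86, which is 2.44-fold less. ZBTB1, required for lymphocyte development, had a level of 2.68. ZBTB46, a marker of classical dendritic cells, had 0.97. ZBTB16 (PLZF) and ZBTB20 were not analysed here.

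ZBTB17 (MIZ-1), the partner through which MYC represses genes, had a level of 2.56 and a mean log2 CPM of 4.01. ZBTB14, first described as a repressor of the MYC promoter, had 0.85. ZBTB48 (TZAP), which binds telomere repeats, had a level of 1.95. ZBTB24, the gene mutated in a form of the ICF immunodeficiency syndrome, had 0.89. ZBTB2 was at 3.26, ZBTB11 at 2.23 and ZBTB10 at -0.030. ZBTB44 had 3.41.

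The lowest 6 levels of the BTB subfamily belonged to ZBTB8A (0.15), ZBTB39 (0.076), ZBTB10, ZBTB42, ZBTB49 (-0.090) and ZBTB37 (-0.45). ZBTB8A shares 25.2% of its exon bases with another gene on the same strand. How reads in those bases were counted is not known, so its level is uncertain to that extent. The low place of ZBTB37 came with a long transcript. Its mean log2 CPM of 3.81 was close to the subfamily's median of 3.82, while its transcript of 19.2 kb was the longest. ZBTB49 had the lowest mean log2 CPM of the subfamily, 1.44. Between these ends, ZBTB45 had 2.69, ZBTB22 had 2.67, ZBTB40 had 2.55, ZBTB9 had 2.38 and ZBTB12 had 2.31. ZBTB5, ZBTB43, ZBTB47, ZBTB26, ZBTB21, ZBTB41 and ZBTB6 followed with levels from 1.05 to 1.67. ZBTB34, ZBTB3 and ZBTB25 were lower, from 0.29 to 0.34.

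In the SCAN subfamily the levels ran from -1.66 to 3.43 with a median of 0.94. Above 1 CPM per kb were 15 of the 22 genes, and 2 genes, ZSCAN18 and ZSCAN9, exceeded the median of all genes. With the deposited gene length the median of all genes was 2.43. ZKSCAN8, at 2.45, was then the only SCAN gene above it. ZSCAN genes had a median of 0.96 and ZKSCAN genes, which add the KRAB domain, had 0.91. This order depends on the length used. The medians were 0.57 for ZSCAN and 0.88 for ZKSCAN with the deposited gene length. As mean log2 CPM they were 2.62 and 3.14.

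ZSCAN18 (ENSG00000121413, minus strand of chromosome 19, 58083838 to 58118427) was the highest SCAN gene with a level of 3.43 and a mean log2 CPM of 4.77. Its exons share 25.6% of their bases with ZNF135 on the opposite strand, and how the counting used strand is not given in the sources used here. ZSCAN9 followed at 3.14. These were also genes for which the length mattered. With the deposited gene length, ZSCAN18 had 1.72 and ZSCAN9 had 1.98, and ZKSCAN8 was then the highest SCAN gene at 2.45.

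By reads alone, the most abundant SCAN transcripts were those of ZKSCAN1 and ZKSCAN8, with mean log2 CPM of 5.48 and 5.37. Their levels were 2.25 and 2.48. ZKSCAN5 had a level of 1.49. ZKSCAN3, known as a repressor of autophagy genes, had 0.91, and ZKSCAN4, its close relative, had -0.42. The proteins of this pair are 85.8% identical, so reads that map to both genes may have been divided between them or lost, and both levels are uncertain to that extent.

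The other SCAN genes above 1 were ZSCAN30 at 2.14, ZSCAN26 at 1.63, ZSCAN25 at 1.57, ZSCAN29 at 1.26 and ZSCAN32 at 1.08. With the deposited gene length ZSCAN25 had 0.86 and ZSCAN32 had 0.57, while ZSCAN30, ZSCAN26 and ZSCAN29 stayed above 1. ZSCAN16 had 0.96, ZSCAN5A 0.73, ZSCAN21 0.60, ZSCAN22 0.40 and ZSCAN31 -0.0022. ZSCAN21 shares 41.1% of its exon bases with ZNF3 on the opposite strand, the largest share among the 58 genes.

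The lowest 6 SCAN genes were ZKSCAN4, ZKSCAN2 (-0.56), ZSCAN12 (-0.61), ZSCAN2 (-0.83), ZKSCAN7 (-0.93) and ZSCAN20. ZKSCAN7 had the lowest mean log2 CPM of all 58 genes, 0.86, at percentile 0.94 of the table. For ZSCAN20 (ENSG00000121903, plus strand of chromosome 1, 33472645 to 33496507) the canonical transcript of 9.46 kb is longer than the deposited gene length of 5.31 kb, so the length used exceeds the exons that the deposited length covers, as it also does for ZSCAN12. With the deposited length its level was -0.83, and ZKSCAN7 was then the lowest SCAN gene at -1.22. ZSCAN4, known from early embryos, and ZSCAN10, known from pluripotent cells, were not analysed here.

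The subfamilies were then compared. The BTB median exceeded the SCAN median by 0.67, or 1.60-fold. The BTB median lay 1.43 below the median of all genes, and the SCAN median lay 2.10 below it. Of the BTB genes, 17 (47.2%) were among the lowest 25% of all genes by level, and of the SCAN genes 15 (68.2%) were. The distributions overlapped over most of their ranges, and as genes are not replicates no test was made. Among the 10 highest levels of the 58, from 2.68 up, 8 were BTB genes and 2 were SCAN genes. Among the 10 lowest, from -0.030 down, 4 were BTB genes and 6 were SCAN genes. Of all 58 genes, 36 are BTB genes and 22 are SCAN genes. With the deposited gene length ZSCAN18, ZSCAN9, ZBTB45 and ZBTB1 left the 10 highest, and ZBTB22, ZBTB33, ZBTB40 and ZKSCAN8 entered. The BTB genes ZBTB10 and ZBTB49 left the 10 lowest with that length, and the SCAN genes ZSCAN31 and ZSCAN5A entered.

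**Figure D2:**
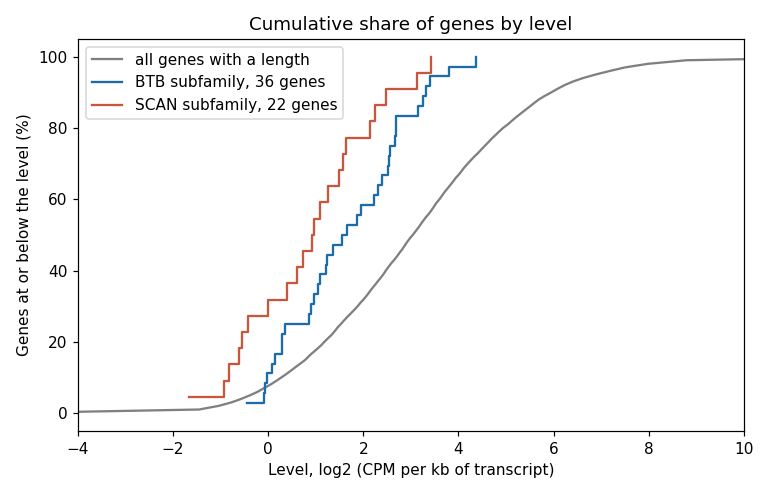
Share of genes (y axis, %) at or below each level (x axis, log2 CPM per kb of transcript) for the BTB subfamily (36 genes), the SCAN subfamily (22 genes) and the 13922 genes with a transcript length. The SCAN line lies to the left of the BTB line, with medians of 0.94 and 1.61, and the median of all genes is 3.04.

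The difference between the medians came with a larger share of SCAN genes of low read number. By mean log2 CPM, 12 of the 22 SCAN genes and 5 of the 36 BTB genes were among the lowest 25% of the table, under 2.88. Among the 31 BTB and 10 SCAN genes above it the medians were 1.95 and 1.88, a difference of 0.064. This restriction selects on the level itself. Adding genes of the same domains under other symbols also narrowed the difference, to 0.31.

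Of the 58 genes, 10 changed by over 1.5-fold when the deposited gene length replaced the length of the canonical transcript. They were ZBTB38, ZBTB17, ZBTB48, ZSCAN18, ZSCAN9, ZSCAN30, ZSCAN25, ZSCAN5A, ZSCAN31 and ZSCAN20. The largest shift was that of ZSCAN5A, whose level was 0.73 with a transcript of 2.15 kb and -1.17 with a gene length of 8.04 kb. This gene also has close copies, as its protein is 79.2% identical to that of ZSCAN5B and 83.7% identical to that of ZSCAN5C. The medians with the deposited length were 1.34 for BTB, 0.72 for SCAN and 2.43 for all genes.

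**Figure D3:**
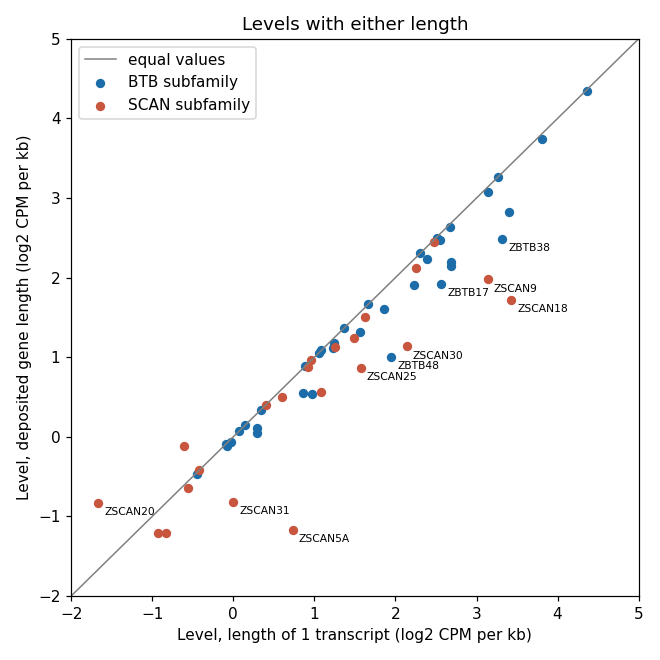
Level of each gene with the length of its canonical transcript (x axis) and with the deposited gene length (y axis), both as log2 CPM per kb, with the line of equal values. The 10 genes named are those that differ by over 1.5-fold, and ZSCAN20 is the named gene that lies above the line.

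The positions of the genes were compared next. BTB genes were found on 15 chromosomes and SCAN genes on 8. Of the 22 SCAN genes, 14 had another of the 58 genes within 500 kb, compared with 9 of the 36 BTB genes. Coordinates are those of the deposited table, whose build is GRCh38.

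A run of 8 SCAN genes occupied 275 kb of chromosome 6, from 28124609 to 28399734. In order of position these were ZSCAN16, ZKSCAN8, ZSCAN9, ZKSCAN4, ZSCAN26, ZSCAN31, ZKSCAN3 and ZSCAN12. Their levels ran from -0.61 for ZSCAN12 to 3.14 for ZSCAN9, a difference of 3.75 on the log2 scale. The ends of this range depend on the length used. With the deposited gene length ZSCAN9 had 1.98 and ZSCAN12 had -0.12, and the range was from -0.82 for ZSCAN31 to 2.45 for ZKSCAN8. A second run on chromosome 7, from 99504651 to 100065040, held ZKSCAN5, ZSCAN25, ZKSCAN1 and ZSCAN21, with levels from 0.60 to 2.25.

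**Figure D4:**
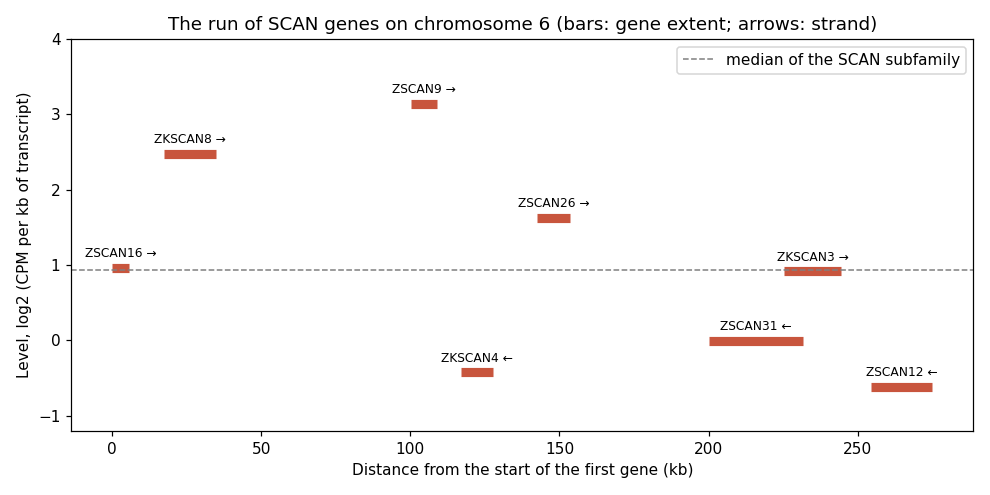
The 8 SCAN genes in the run on chromosome 6, each drawn as a bar over its extent (x axis, kb from the start of the first gene) at its level (y axis, log2 CPM per kb of transcript), with an arrow for its strand. ZSCAN9, ZKSCAN8 and ZSCAN26 lie highest and ZSCAN12, ZKSCAN4 and ZSCAN31 lowest, on either side of the subfamily's median of 0.94.

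BTB genes near each other came in pairs. ZBTB25 and ZBTB1 on chromosome 14 overlap at their starts, from 64449106 to 64533690 in all, and had levels of 0.29 and 2.68. ZBTB6 and ZBTB26 on chromosome 9 lie within 23.5 kb and had 1.05 and 1.24. ZBTB43 and ZBTB34, further along chromosome 9, had 1.56 and 0.34. ZBTB22 and ZBTB9 on chromosome 6 had 2.67 and 2.38. On chromosome 19, ZBTB45 (2.69) lies near ZSCAN22 (0.40) and ZSCAN18.

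The proteins were examined through the coding sequence of the canonical transcripts. Fingers were counted by a fixed pattern, so any that depart from it are not in the counts. SCAN proteins had a median of 6.5 C2H2 fingers (2 to 14) and BTB proteins a median of 4 (1 to 14). Up to 3 fingers were found in 15 of 36 BTB proteins and in 1 of 22 SCAN proteins, that of ZSCAN18. The median length was 586.5 residues in the BTB subfamily and 544.5 in the SCAN subfamily. The longest was ZBTB40 with 1239 residues and 13 fingers, and the shortest was ZSCAN16 with 348 residues and 4.

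Over the first 120 residues, which hold the BTB domain in most ZBTB proteins, the median identity was 34.1% among 630 pairs of BTB proteins. It was 54.9% among 231 pairs of SCAN proteins and 20.5% between the subfamilies. The median difference in level was 1.30 within BTB pairs, 1.43 within SCAN pairs and 1.40 between the subfamilies.

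Across the 58 genes the level had a Pearson's r of -0.20 with the number of fingers and of 0.046 with the length of the protein, and Spearman's rho was -0.19 and 0.073. These correlations are descriptions across genes of the same libraries, which are not independent replicates. They also pool the subfamilies, whose medians differ in both number of fingers and level, and none within a subfamily is given. The SCAN genes with 10 or more fingers, ZSCAN12, ZKSCAN5, ZKSCAN7, ZSCAN2 and ZSCAN20, included the 4 lowest of the subfamily. The BTB genes ZBTB40 and ZBTB17, with 13 fingers each, had levels of 2.55 and 2.56. Of the other BTB genes with 10 or more, ZBTB11 had 2.23, ZBTB48 had 1.95 and ZBTB41, with 14 fingers, had 1.08. These places too depend on the length used. With the deposited gene length the 4 lowest SCAN genes were ZKSCAN7, ZSCAN2, ZSCAN5A and ZSCAN20, of which ZSCAN5A has 5 fingers. ZBTB17 then had 1.92 and ZBTB48 had 1.00.

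**Figure D5:**
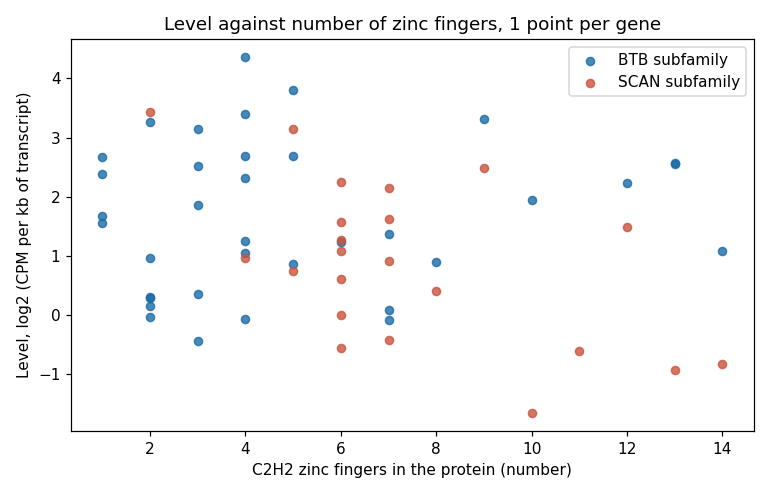
Level of each gene (y axis, log2 CPM per kb of transcript) against the number of C2H2 fingers in its protein (x axis), 36 BTB and 22 SCAN genes. With this length the 4 lowest SCAN genes have 10 to 14 fingers and BTB genes with as many lie between 1.08 and 2.56, but with the deposited length ZSCAN5A, with 5 fingers, replaces ZSCAN12 among the 4 lowest.

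Promoters were taken from RefSeq (GRCh38.p14), from 250 bases before to 50 bases after the start of each gene, for 31 of 36 BTB and 19 of 22 SCAN genes. The median GC content was 65.7% in BTB and 64.0% in SCAN promoters, compared with 58.3% over all 27305 promoters. All promoters include those of genes that these cells may not use. A promoter was found for only 70.0% of the genes of the table, which makes that background incomplete, and in those 9764 promoters the median GC content was 65.3%. Motifs were searched on both strands. No motif lies within another, but matches may share bases, as the end of the ETS motif and the start of the YY1 motif do.

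CCGGAAG, a sequence bound by ETS factors, was found in 12 of 19 SCAN promoters (63.2%) and in 9 of 31 BTB promoters (29.0%). Its share was 10.7% in all promoters and 20.2% in those of the table. The GC box GGGCGG was in 68.4% of SCAN and 77.4% of BTB promoters, near the 71.1% in promoters of the table (44.6% of all promoters). The box CCAAT was in 26.3% of SCAN and 41.9% of BTB promoters (37.1% of the table, 35.7% of all). The TATA sequence TATAAA was in 0 of the 50 promoters, in 5.25% of those of the table and in 11.95% of all.

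The other motifs were rarer, and each was in few members. TCGCGA was in 3 SCAN promoters and 1 BTB promoter (6.17% of the promoters of the table, 3.16% of all promoters). The E-box CACGTG was in 1 SCAN promoter and 6 BTB promoters (10.1% of the table, 7.43% of all). The cyclic AMP response element TGACGTCA was in 0 SCAN and 3 BTB promoters (3.34% of the table, 1.98% of all). The NRF1 motif CGCATGCG was in 1 promoter of each subfamily (4.005% of the table, 2.19% of all). The YY1 motif AAGATGG was in 0 SCAN promoters and 1 BTB promoter (7.77% of the table, 6.06% of all). A match describes letters in the window and not a site that is bound.

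SCAN genes with CCGGAAG were found at both ends of the range of levels. The promoters of the 3 highest SCAN genes that hold it, of the lowest, and of the highest BTB gene that holds it are given below to show where it lies. Each is 300 bases long, written 5′ to 3′ on the strand of the gene, with CCGGAAG or its reverse complement in capitals. They lie at chr6:28224990-28225289 (ZSCAN9, plus strand), chr6:28141633-28141932 (ZKSCAN8, plus), chr7:100015346-100015645 (ZKSCAN1, plus), chr1:33472395-33472694 (ZSCAN20, plus) and chr17:7484200-7484499 (ZBTB4, minus).
ZSCAN9: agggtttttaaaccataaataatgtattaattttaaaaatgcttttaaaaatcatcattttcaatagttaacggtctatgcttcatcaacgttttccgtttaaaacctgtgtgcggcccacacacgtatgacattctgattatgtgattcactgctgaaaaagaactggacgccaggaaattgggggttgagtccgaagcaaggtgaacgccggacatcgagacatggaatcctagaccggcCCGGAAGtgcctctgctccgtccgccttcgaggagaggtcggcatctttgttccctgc
ZKSCAN8: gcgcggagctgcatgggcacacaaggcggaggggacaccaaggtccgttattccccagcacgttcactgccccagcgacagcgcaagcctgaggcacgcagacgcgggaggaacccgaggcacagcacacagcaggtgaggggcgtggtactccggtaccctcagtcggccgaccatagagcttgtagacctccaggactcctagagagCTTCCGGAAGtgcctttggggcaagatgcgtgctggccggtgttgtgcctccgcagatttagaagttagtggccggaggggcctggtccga
ZKSCAN1: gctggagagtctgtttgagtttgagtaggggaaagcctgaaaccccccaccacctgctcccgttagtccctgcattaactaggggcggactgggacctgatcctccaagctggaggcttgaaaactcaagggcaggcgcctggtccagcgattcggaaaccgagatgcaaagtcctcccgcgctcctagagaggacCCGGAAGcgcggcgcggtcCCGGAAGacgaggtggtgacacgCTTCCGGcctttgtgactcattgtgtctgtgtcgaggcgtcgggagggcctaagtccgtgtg
ZSCAN20: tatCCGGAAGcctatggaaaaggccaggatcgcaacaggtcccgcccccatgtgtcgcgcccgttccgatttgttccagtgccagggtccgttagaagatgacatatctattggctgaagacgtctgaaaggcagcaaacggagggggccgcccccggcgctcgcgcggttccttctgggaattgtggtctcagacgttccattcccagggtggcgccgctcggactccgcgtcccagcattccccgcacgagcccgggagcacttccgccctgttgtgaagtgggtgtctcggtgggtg
ZBTB4: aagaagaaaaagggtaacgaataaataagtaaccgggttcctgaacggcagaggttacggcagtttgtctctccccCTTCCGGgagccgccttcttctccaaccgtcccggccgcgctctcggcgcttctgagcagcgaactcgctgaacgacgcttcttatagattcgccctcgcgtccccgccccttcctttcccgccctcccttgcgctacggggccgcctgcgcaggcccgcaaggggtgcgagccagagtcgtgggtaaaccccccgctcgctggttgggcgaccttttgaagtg

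In ZKSCAN8 the motif and its reverse complement overlap in a single palindrome, whereas ZKSCAN1 has 3 separate matches. Of the SCAN genes shown, ZSCAN9 at 3.14 and ZSCAN20 at -1.66 had 1 match each. CpG content had a Pearson's r of -0.041 with the level over the 50 genes with a promoter.

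Genes that carry the same domains under other symbols were examined as well. Of 8 such BTB zinc finger genes, 7 had a value, with a median of 1.57. ZNF131 was the highest at 3.94 and HIC2 the lowest at -0.53. BCL6, the repressor of germinal centre B cells, had 1.57. Of 19 SCAN genes under other symbols, 17 had a value, with a median of 2.47, above that of the ZSCAN and ZKSCAN genes. SCAND1, which encodes a SCAN domain without fingers, was the highest at 5.47, followed by ZNF444 at 3.77, MZF1 at 3.57 and ZNF24 at 3.43. ZNF483 was the lowest at -2.17.

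Lists of corepressor and other partner genes had higher medians than the factors. The 10 listed partners of BTB proteins had a median level of 3.45, from 1.19 for BCORL1 to 5.59 for HDAC3. This list includes CUL3, at 3.32, which is a ubiquitin ligase scaffold and not a corepressor. NCOR1 had a level of 3.83, and BCOR had 1.81. The 10 genes of the KRAB corepressor complex had a median of 4.56. TRIM28, to which the KRAB domain of many zinc finger proteins binds, had a level of 7.96 at percentile 97.9 of all genes. The highest ZKSCAN gene, ZKSCAN8, had 2.48, and whether ZKSCAN proteins bind TRIM28 was not tested.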

How the data were processed

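RNA sequencing covered 4 samples, 2 with cordycepin and 2 with DMSO. Paired-end reads of 75 bp were aligned to GRCh38.p13 by the authors, who took gene counts from rsubread, while the submitters' processing notes name hg38, TopHat, HTSeq, DESeq and Cufflinks without a role. The authors' deposited table gives a mean log2 CPM, a gene length, a symbol and coordinates for each gene. Its other values are the fold change, F statistic, p-value and adjusted p-value of the authors' own comparison, which were not used. It holds 0 columns of values per sample, so depth is unknown and no test between groups was possible. The normalization and the filter on low counts are not given in the sources used here.

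The level per length is the mean log2 CPM less the log2 of the kb of the Ensembl canonical transcript in GENCODE release 44 (GRCh38), in which 13922 gene IDs (99.7%) were found. The deposited length was the alternative, and it equalled the total exon length in GENCODE for 37 of the 58 genes. GENCODE lists 69 genes that the rule would take (41 BTB, 28 SCAN), of which 11 were not analysed here. Fingers were counted with the pattern C-X(2 to 4)-C-X(12)-H-X(3 to 5)-H, and identity came from global alignment with BLOSUM62. Both pattern searches were tested on simulated sequences that held planted matches. Such a test cannot show whether real fingers that depart from the pattern were missed. Alternatives were another length, no length, a filter on low values, other gene sets and means. Named genes are the 6 highest and 6 lowest of each subfamily, a list chosen by role and genes on fixed lists, and others were named after their values were seen. The members and lists were chosen with earlier results of these data known. The software was Biopython 1.88, matplotlib 3.10.9, scipy 1.17.1, pandas 2.3.3 and numpy 2.4.6 under Python 3.11.15.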

Additional observations from a re-analysis of the deposited data

How the results depend on the processing

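The BTB median exceeded the SCAN median under each alternative in which the ZBTB, ZSCAN and ZKSCAN genes took part, but by amounts from 0.064 to 1.15 on the log2 scale, against 0.67 as reported. With the deposited gene length the medians were 1.34 and 0.72 and the difference was 0.62. Without division by length they were 3.82 and 2.67 (difference 1.15). Among genes above the lowest 25% by mean log2 CPM they were 1.95 and 1.88 (difference 0.064), an alternative that leaves 10 SCAN genes. With genes of the same domain under other symbols added they were 1.57 and 1.26 (difference 0.31). The added genes alone ran the other way, with medians of 1.57 for 7 BTB genes and 2.47 for 17 SCAN genes. The SCAN median was 0.96 with ZSCAN genes only (difference 0.65) and 0.91 with ZKSCAN genes only (difference 0.70). Means in place of medians were 1.67 and 0.87 (difference 0.80). An alternative chosen after seeing the data kept the 39 genes that share at most 5% of their exon bases with another gene, and gave 1.86 and 1.37 (difference 0.49). With the deposited length, 6 of the 36 genes named by rule held their rank within the subfamily, and 1, ZBTB48, moved by over 5 places, from 16 to 24. ZSCAN5A, which is outside that rule, moved from 13 to 20. No paired analysis was possible because only means over the libraries were used, which carry no replicate numbers. No replicate could be left out and cordycepin could not be tested against DMSO for that reason, and precision at low levels is not known.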
